A study of Mus musculus with 2 samples.

Results

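The Th1 and Th2 cytokine loci of the mouse were examined here for binding of the chromatin protein CTCF. The loci were represented by 7 genes on 2 chromosomes: Kif3a, Il4, Il13, Rad50 and Il5 at the Th2 locus on chromosome 11, and Il22 and Ifng at the Ifng locus on chromosome 10. The members were the CTCF peaks of the authors' conservative peak set whose summits lay between 150 kb before the first and 150 kb after the last gene of a locus, on genome build mm10. There were 34 such peaks, 27 around the Th2 genes and 7 around Il22 and Ifng, among 43344 conservative peaks on the autosomes and the X chromosome. Within the conservative set the rule used position alone, and the underlying sequence had no part in the choice. The set itself had passed the authors' threshold on reproducibility between the replicates. Peak strength and agreement between replicates had therefore already shaped which peaks could be members.

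The cells were E14TG2a.4, an embryonic stem cell line of strain 129/Ola, recorded as male and as derived from an embryo of 3.5 days. Chromatin immunoprecipitation with a CTCF antibody and sequencing had been done on 2 libraries, labelled as biological replicates 1 and 2 of the same line and donor. No genetic change and no treatment is recorded for either library. There was no other condition, so the peaks were compared between the 2 replicates and with the rest of the genome, and no test between groups was possible.

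CTCF is a zinc-finger protein that binds a long, asymmetric DNA sequence and stops loop-extruding cohesin, mainly where the sequence points toward the approaching complex. T helper cells make interleukin 4, interleukin 5 and interleukin 13 when they become Th2 cells and interferon gamma when they become Th1 cells, and in T cells both loci are known for long-range contacts between their genes and distant regulatory elements. The stem cells studied here are no T cells. Expression and contacts were not measured in them, so the values describe where CTCF lay and how strongly, not what the genes did.

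The authors' calls on the older build mm9 overlay a genome sequence that could be read, and sequences under peaks in and beside the member genes are shown first. Each run below is 59 bases, written 5′ to 3′ in the direction of the CTCF site, and capitals mark the 19 bases of the best match to a CTCF weight matrix learned from 5000 strong peaks of other chromosomes. The most frequent base at each matrix position spelled TGGCCACCAGAGGGCGCTA. They are shown so that sites near the cytokine genes can be compared letter by letter, and they are a selection that includes weak peaks and leaves out some strong ones.
Kif3a intron site: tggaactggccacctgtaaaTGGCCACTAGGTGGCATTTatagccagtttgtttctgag
Site between Il4 and Il13: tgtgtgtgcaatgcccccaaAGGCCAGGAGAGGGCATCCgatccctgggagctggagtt
Il13 coding exon site: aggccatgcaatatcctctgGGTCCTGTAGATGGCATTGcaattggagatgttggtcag
Site between Il13 and Rad50: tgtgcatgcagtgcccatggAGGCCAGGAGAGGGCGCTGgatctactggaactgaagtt
Il5 downstream site A: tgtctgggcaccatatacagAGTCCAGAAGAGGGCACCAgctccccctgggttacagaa
Il5 downstream site B: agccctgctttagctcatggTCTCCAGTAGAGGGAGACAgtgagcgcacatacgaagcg
Il5 downstream site C: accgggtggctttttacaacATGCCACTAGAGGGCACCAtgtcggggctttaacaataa
Mdm1 intron site: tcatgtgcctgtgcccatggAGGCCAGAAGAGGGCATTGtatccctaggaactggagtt
Ifng upstream site: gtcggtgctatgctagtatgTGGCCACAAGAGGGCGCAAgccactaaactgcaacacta
Ifng intron site: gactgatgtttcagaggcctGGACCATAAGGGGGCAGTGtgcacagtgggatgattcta
Ifng downstream site, inner: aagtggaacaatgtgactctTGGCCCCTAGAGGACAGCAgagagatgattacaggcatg
Ifng downstream site, outer: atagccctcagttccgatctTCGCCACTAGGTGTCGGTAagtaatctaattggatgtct

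On build mm9, the Th2 runs lie as follows. The Kif3a intron run is chr11:53398491-53398549 on the plus strand, the run between Il4 and Il13 is chr11:53437797-53437855 on the minus strand, and the Il13 coding exon run is chr11:53446004-53446062 on the plus strand. The run between Il13 and Rad50 is chr11:53456405-53456463 on the minus strand. Downstream of Il5, run A is chr11:53548113-53548171 on the minus strand, run B is chr11:53549238-53549296 and run C is chr11:53551274-53551332, both on the plus strand. On chromosome 10, the Mdm1 intron run is chr10:117592268-117592326 on the plus strand and the Ifng upstream run is chr10:117807679-117807737 on the minus strand. The Ifng intron run is chr10:117879119-117879177 on the plus strand. The inner downstream run is chr10:117944855-117944913 on the minus strand, and the outer one is chr10:118029856-118029914 on the plus strand. Apart from the runs in Kif3a, Il13, Mdm1 and Ifng, these runs lay between annotated genes of GENCODE vM1.

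Peak strength is given in 3 ways. The pooled signal is the authors' value per peak from both libraries together, on a scale of their peak caller that is not stated, with a median of 77.2 over the conservative peaks. The replicate signal is the value of the nearest summit within 100 bp in a replicate's own list, with medians of 41.6 in replicate 1 and 38.7 in replicate 2. Over the genome, 41382 conservative peaks, or 95.5%, had such a summit in both replicates, and 31 of the 34 peaks studied here did. The relative signal divides a replicate's value by that replicate's median, so that 1 is a median conservative peak, and it is given as mean ± SD over the 2 replicates (n = 2). The lists hold no read counts, so the depth behind a value is unknown.

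The Th2 locus was dense in CTCF peaks, and most of its peaks of above-median strength lay outside the cytokine genes. Its window of 459.4 kb, chr11:53415701-53875103 on mm10, held 27 peaks, or 58.8 per Mb. Chromosome 11 as a whole held 27.3 per Mb and the autosomes and X together 16.9 per Mb, so the window was 2.15 times as dense as its chromosome. When chromosome 11 was divided into 258 adjacent windows of the same length, the median window held 12 peaks and the fullest held 42, and 8.91% held as many peaks as the Th2 window or more. Of the 27 peaks, 15 were stronger than the median conservative peak, and the pooled signal ran from 9.85 to 170.6 with a median of 87.8, beside a median of 82.1 for chromosome 11.

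The Ifng locus was sparse by contrast, and its peaks stood far apart. Its window of 541.3 kb, chr10:118054584-118595894, held 7 peaks, or 12.9 per Mb, beside 16.8 per Mb for chromosome 10. The ratio to the chromosome of 0.768 did not keep its direction. It was 1.17 in the authors' optimal peak set, which held 11 peaks in the window. With replicate 2 left out it was 1.10, in a list from replicate 1 alone of the same size as the conservative set. Of 235 adjacent windows of this length on chromosome 10, 53.6% held as many peaks as the Ifng window or fewer, so its count was an ordinary one for the chromosome. The pooled signal ran from 23.4 to 226.2 with a median of 60.5, and 3 of the 7 peaks were above the median conservative peak.

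**Figure D1:**
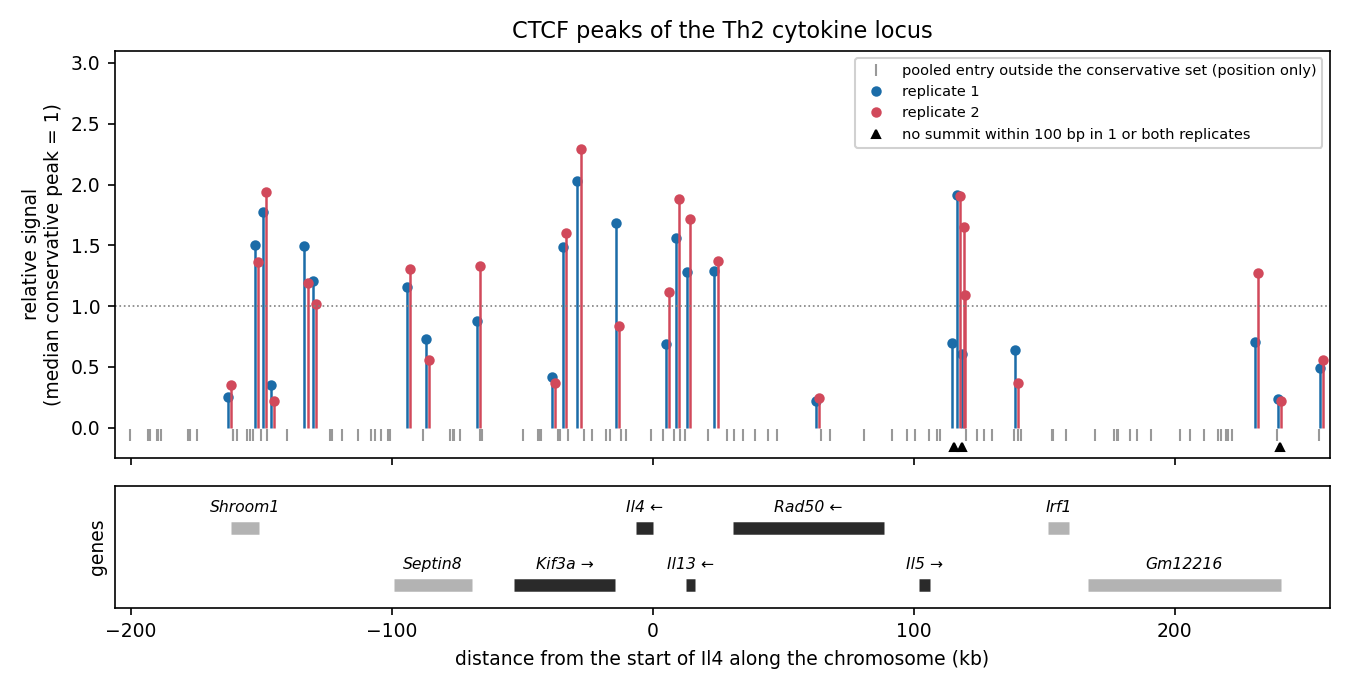
Relative CTCF signal (1 = median conservative peak) of the 27 peaks of the Th2 window in replicate 1 (blue) and replicate 2 (red), drawn side by side against distance from the start of Il4 in kb, with gene spans below and arrows for the direction of the 5 genes of the locus. Grey ticks mark pooled entries outside the conservative set and triangles mark 3 peaks with no matching summit in 1 or both replicates. Tall bars flank Il4 and Il13 on both sides, with a peak of 2.16 ± 0.187 in Kif3a, while the long Rad50 gene holds a single short bar.

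Il4 encodes the interleukin that drives Th2 differentiation and the switch of B cells to IgE, and in these stem cells no conservative peak lay inside it. Its span, chr11:53612460-53618665 on the minus strand, held 1 entry of the pooled list with a signal of 8.01 and none of either replicate list, beside a median of 9.57 over the whole pooled list. Peaks stood on both sides of the gene. Upstream, a peak at chr11:53624296-53624402 lay 5681 bp from the nearer of the Il4 starts with a pooled signal of 74.7, from 28.8 in replicate 1 and 43.4 in replicate 2. On the downstream side, in the 8.21 kb between Kif3a and Il4, a peak at chr11:53605111-53605213 had a pooled signal of 102.8, from 69.9 in replicate 1 and 32.3 in replicate 2.

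These peaks beside Il4 differed between the libraries in opposite directions. After scaling, the downstream peak was 2.01-fold higher in replicate 1, with a relative signal of 1.26 ± 0.598, and was the peak of both loci with the largest gap between replicates. The upstream peak was 1.62-fold higher in replicate 2, at 0.906 ± 0.302. In the gene models of GENCODE vM1 on mm9, which give Il4 a longer form, the peak on the Kif3a side fell in an Il4 intron, whereas the RefSeq span on mm10 leaves it outside the gene.

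Il13 encodes a cytokine that acts on airway epithelium and smooth muscle, and it was the Th2 cytokine gene with a peak in its body. The peak at chr11:53632443-53632596 lay 2189 bp downstream of the gene start, and its pooled signal of 119.4 exceeded that of 72.5% of the conservative peaks. Its signal was 53.2 in replicate 1 and 66.3 in replicate 2, giving a relative signal of 1.5 ± 0.308. The replicates were thus 1.34-fold apart, with replicate 2 the higher. Against mm9, the site printed above for this peak lay in the coding sequence of an Il13 exon.

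Il13 had further strong peaks on either side. In the 12.7 kb between Il4 and Il13, a peak at chr11:53628000-53628170 reached a pooled signal of 137.4, with 64.8 in replicate 1 and 73.0 in replicate 2 and a relative signal of 1.72 ± 0.231. On the side of Rad50, a peak at chr11:53642891-53643037 lay 8246 bp upstream of Il13 with a pooled signal of 105.8, from 53.6 in replicate 1 and 53.1 in replicate 2. That upstream peak was among the steadier ones, at 1.33 ± 0.0592. The stretch from Il4 to Rad50 thus held peaks inside Il13 and on both sides of it. Its strongest peak was the one 6635 bp downstream of the Il13 start, between Il13 and Il4.

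Rad50 encodes a subunit of the MRE11 complex, which senses and repairs broken DNA, and in the mouse its 3′ part is known to hold the locus control region of the Th2 cytokines. Over its 57.8 kb, chr11:53649519-53707319, the conservative set held 1 peak. That peak, chr11:53681743-53682058, had a pooled signal of 18.3, from 9.04 in replicate 1 and 9.45 in replicate 2, and 3.38% of the conservative peaks were weaker. It lay 25419 bp downstream of the gene start, had a relative signal of 0.231 ± 0.0190 and was not in the optimal set. The pooled list gave 9 entries within Rad50 and the replicates 10 and 12, none above the values just given.

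Stretches without conservative peaks lay on both sides of the weak Rad50 peak. Between it and the peak upstream of Il13, 38.0 kb held pooled entries of at most 13.3, and between it and the peaks downstream of Il5, 51.2 kb held entries of at most 16.5. The latter stretch took in the start of Rad50, the 13.5 kb between Rad50 and Il5, and all of Il5.

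Il5 encodes the cytokine that makes eosinophils grow and survive, and no conservative summit lay in its span, chr11:53720794-53725103 on the plus strand. The span held 1 pooled entry with a signal of 10.3, and the highest replicate entry there was 5.99 in replicate 1 with none in replicate 2. Downstream of it, 4 peaks stood within 17002 bp of the Il5 start. The nearest, at chr11:53733899-53734214 and 13262 bp away, had a pooled signal of 33.2 and 29.0 in replicate 1, while the nearest summit of replicate 2 was 129 bp off at 12.8. The next, at chr11:53735659-53735855, had a pooled signal of 153.8, from 79.5 in replicate 1 and 73.7 in replicate 2.

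That peak of 153.8 downstream of Il5 was the strongest of the group, and the replicates were 1.00-fold apart in it, at 1.91 ± 0.00552. A peak at chr11:53737058-53737232 had a pooled signal of 108.1 and 63.9 in replicate 2, and the nearest summit of replicate 1 stood 108 bp off at 51.4. A peak at chr11:53737702-53737856 had a pooled signal of 67.9, from 25.1 in replicate 1 and 42.3 in replicate 2, and was 1.81-fold higher in replicate 2. The last 3 summits were 1463 and 576 bp apart, so values assigned to neighbouring summits may share reads.

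Kif3a encodes a motor subunit of kinesin-2, which carries cargo along cilia, and it held the strongest peak of the Th2 window. Its span, chr11:53565701-53604248 on the plus strand, contained 3 conservative peaks. The strongest, chr11:53590351-53590551, had a pooled signal of 170.6, from 84.4 in replicate 1 and 88.8 in replicate 2, and 90.8% of the conservative peaks were weaker. A second, chr11:53584925-53585088, had a pooled signal of 123.9, from 61.8 in replicate 1 and 62.1 in replicate 2. The third, chr11:53580606-53580921, was weak at 34.9, from 17.5 in replicate 1 and 14.1 in replicate 2. Both stronger peaks were above the median in each library, at 2.16 ± 0.187 and 1.54 ± 0.0839, and the weak one was below it in each, at 0.393 ± 0.0393. None lay near the gene start, the closest being 13394 bp downstream of it.

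From the start of Kif3a to the end of Il5, 159.4 kb held 9 conservative peaks and 8 optimal ones, or 5.65 conservative peaks per 100 kb. The flanks held the other 18 peaks of the Th2 window, 9 before Kif3a and 9 after Il5, and more of the above-median ones lay before Kif3a than after Il5. There, the 9 peaks ran from Shroom1, a gene of the actin-binding Shroom family, to the stretch upstream of Kif3a. The strongest was chr11:53469979-53470155, 12994 bp downstream of the Shroom1 start, with a pooled signal of 146.9 and 73.9 and 75.0 in replicates 1 and 2. A peak within Shroom1 at chr11:53466670-53466826 had a pooled signal of 117.7, from 62.6 and 52.8. A peak in the noncoding RNA gene Gm19835 at chr11:53485790-53485919 had 110.4, from 62.2 and 46.1.

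Septin8, which encodes a filament-forming GTPase, held 2 peaks. The one at chr11:53525003-53525129 had a pooled signal of 98.6, from 48.2 in replicate 1 and 50.5 in replicate 2, and the one at chr11:53532379-53532694 had 52.0, from 30.5 and 21.4. Upstream of Septin8, chr11:53489038-53489353 had 93.5, from 50.3 and 39.5. Between Septin8 and Kif3a, chr11:53551984-53552114 had 87.8, from 36.5 and 51.4, and was 1.51-fold higher in replicate 2. The weak peaks of this flank were chr11:53456462-53456777, 474 bp upstream of Shroom1, at 26.4 from 10.5 and 13.7, and chr11:53472696-53473011 at 24.3 from 14.7 and 8.57. The latter was 1.59-fold higher in replicate 1.

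On the far side of the Il5 cluster, peaks were few and near or below the median. The peak at chr11:53758047-53758362 lay 11810 bp upstream of Irf1, a transcription factor gene of the interferon response, with a pooled signal of 41.2 from 26.6 in replicate 1 and 14.3 in replicate 2. It was 1.74-fold higher in replicate 1. No conservative summit lay in Irf1 itself, and none in the 91.9 kb up to chr11:53850077-53850163 in the noncoding RNA gene Gm12216. That peak had a pooled signal of 81.5, from 29.3 and 49.2, and was 1.81-fold higher in replicate 2. The optimal set had 2 peaks within the gap before it. In Slc22a5, the carnitine transporter gene, chr11:53874706-53875021 had 42.0, from 20.5 and 21.7, and its summit was 240 bp inside the edge of the window. The nearest peaks left outside by the window's limits had pooled signals of 80.9 on this side, 56.4 kb out, and 81.5 on the side of Shroom1, 3.76 kb out.

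Another 2 weak peaks of the locus lay in Gm12216. The peaks chr11:53858765-53859080 and chr11:53858977-53859292 had summits 212 bp apart and pooled signals of 20.9 and 9.85. The first matched summits of 9.80 in replicate 1 and 8.47 in replicate 2. The other had no summit of either replicate within 100 bp, the nearest being the same 2 replicate summits at 223 and 203 bp. How the authors' procedure paired these entries was not looked at. Of the 27 Th2 peaks, 4 were missing from the optimal set: both of these, the Rad50 peak and the peak 474 bp upstream of Shroom1. The share of all conservative peaks missing from the optimal set is not given here, so this count does not set the locus apart.

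**Figure D2:**
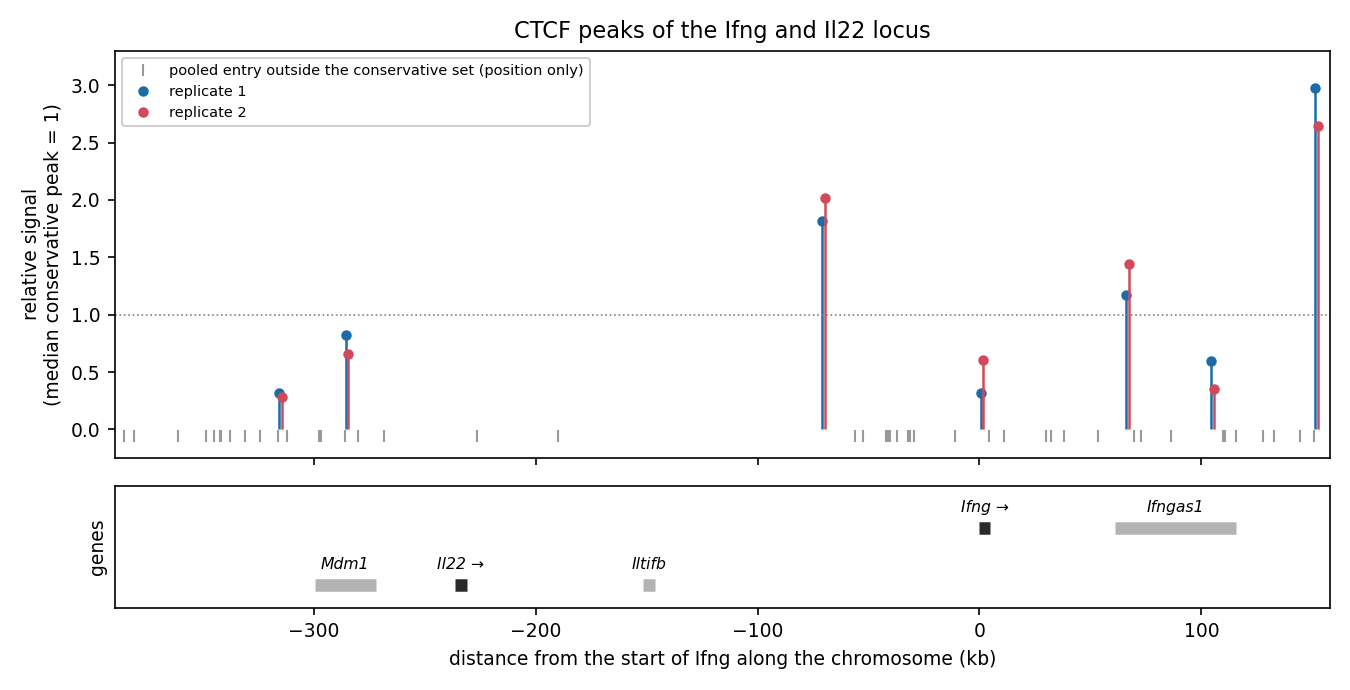
Relative CTCF signal (1 = median conservative peak) of the 7 peaks of the Ifng window in replicate 1 (blue) and replicate 2 (red), drawn side by side against distance from the start of Ifng in kb, with gene spans below. Grey ticks mark pooled entries outside the conservative set. Strong peaks stand 70413 bp upstream and 151775 bp downstream of Ifng, a weak one lies in the gene, and Il22 sits in a gap of 214.5 kb.

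Ifng encodes interferon gamma, the Th1 cytokine that activates macrophages, and it carried a weak peak in its body. The span is chr10:118441046-118445894 on the plus strand, and the peak at chr10:118441985-118442300 lay 1096 bp downstream of the gene start. Its pooled signal was 37.5, from 13.2 in replicate 1 and 23.3 in replicate 2, and 21.5% of the conservative peaks were weaker. The relative signal was 0.460 ± 0.202, below the median in both libraries. The scaled signal was 1.90-fold higher in replicate 2, the largest gap between replicates at the Ifng locus. In the mm9 calls, the corresponding peak had a fold enrichment of 5.35 in the pooled list and 6.0 in replicate 2 and was not called in replicate 1.

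The strong peaks of the Ifng locus lay far from the gene on both sides. Upstream, chr10:118370575-118370758 had a pooled signal of 153.9, from 75.6 in replicate 1 and 78.2 in replicate 2, and a relative signal of 1.92 ± 0.144. It was the only conservative peak in the 231.0 kb between Il22 and Ifng. The optimal set had 3 there. Downstream, chr10:118592693-118592933 had a pooled signal of 226.2, from 124.0 and 102.5, and 97.8% of the conservative peaks were weaker. At 2.81 ± 0.234 it was the strongest of the 34 peaks, and it lay 151775 bp from the Ifng start and 3.07 kb inside the edge of the window. The next conservative peak beyond the window was 454.2 kb past that edge, with a pooled signal of 96.8. On the other side, the first peak outside was 19.3 kb beyond the edge at 103.8.

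Between Ifng and the strong downstream peak lies Ifngas1, a noncoding RNA gene known in T cells for its effect on Ifng, and it held 2 peaks. The peak at chr10:118507694-118508009, 66805 bp downstream of the Ifng start, had a pooled signal of 106.7, from 48.7 in replicate 1 and 55.8 in replicate 2. The peak at chr10:118546046-118546361 was weaker at 38.6, from 24.6 and 13.6, and was 1.68-fold higher in replicate 1. Their relative signals were 1.30 ± 0.192 and 0.472 ± 0.170. Ifng thus had peaks of 1.92 and 1.30 at similar distances on its 2 sides, with the weak peak of the gene body between them.

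Il22 encodes a cytokine of the interleukin 10 family that acts on epithelial cells, and of the member genes its start was the farthest from a conservative mm10 summit. Its span, chr10:118204584-118210047 on the plus strand, held no entry of the pooled list or of either replicate list. The nearest conservative summit lay 48862 bp upstream, in Mdm1, a gene for a microtubule-binding protein of centrioles. That peak, chr10:118155945-118156260, had a pooled signal of 60.5, from 34.1 in replicate 1 and 25.6 in replicate 2. The remaining peak of the window, chr10:118125848-118126163, the first along the chromosome, was weak at 23.4, from 13.3 and 10.8.

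Between the Mdm1 peak and the peak upstream of Ifng was the widest gap of either window. The 213.5 kb that begin and end 500 bp from these summits held 4 pooled entries, the highest at 15.9, and replicate entries of at most 10.2 in replicate 1 and 11.1 in replicate 2. Besides Il22 the gap holds Iltifb, a near-identical copy of Il22 in some mouse strains, named here after the values were seen. Reads from the copies can be hard to place, and how the authors treated such reads is not given in the sources used here, so empty lists at these genes do not show that CTCF is absent.

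The mm9 calls show the duplication in the sequence. They placed a weak peak 9427 bp downstream of the Il22 start, chr10:117651145-117651706 with a fold enrichment of 6.05, and another 10079 bp downstream of the Iltifb start, chr10:117721643-117722388 with 6.33. Around their best-scoring places, 448 of 501 bases, or 89.4%, were the same, and over 59 bases the sequences were identical. The shared run is printed because it ties both peaks to the same duplicated stretch.
Il22 and Iltifb copies: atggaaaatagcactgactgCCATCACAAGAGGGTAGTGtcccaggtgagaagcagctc
It lies at chr10:117651654-117651712 on the minus strand and at chr10:117721854-117721912 on the plus strand, and its score did not reach the threshold used below. Neither peak is centred on it: the site lies 258 bp from the midpoint of the Il22 peak and 132 bp from that of the Iltifb peak. Within 50 bp of these midpoints the best scores were -3.95 and -2.06 bits.

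Measured from gene starts, CTCF summits were not close to the members. Within 1 kb of a start there was a conservative summit for 0 of the 7 genes, beside 10.1% of 20897 protein-coding genes. Within 2 kb there was a summit for Ifng, beside 15.9% of genes, and within 5 kb for Ifng and Il13, beside 29.4%. Over 7 genes these counts lie near the shares of all genes and do not set the members apart. A summit lay inside 4 of the 7 genes, Kif3a, Il13, Rad50 and Ifng, beside 42.5% of protein-coding genes.

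The same measure was taken for 39 other genes linked to T helper cells and their cytokines. They are a list of cytokines, receptors and transcription factors from textbook knowledge. The list reaches beyond Th1 and Th2 cells, with Il17a, Il17f, Il33 and Il22ra1 in it, and it includes Irf1 of the Th2 window. None of the 39 had a conservative summit within 1 kb of a start, and 15 had a summit inside the gene, beside the 10.1% and 42.5% of protein-coding genes given above. Within 2 kb there were 5 of the 39, beside 15.9% of protein-coding genes, and within 5 kb there were 9, beside 29.4%. The genes named next were chosen after their values were seen. Where a gene has several listed starts, the distance is to the nearest of them. Stat6, which carries the signal of the interleukin 4 receptor, had a summit 1048 bp from its start with a pooled signal of 138.7, from 84.3 in replicate 1 and 53.6 in replicate 2.

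Gata3, the transcription factor that specifies Th2 cells, had a summit 1185 bp from the nearest of its starts, with a pooled signal of 143.5, from 66.1 in replicate 1 and 76.9 in replicate 2. Runx3, a transcription factor of Th1 and cytotoxic T cells, had a summit 1899 bp from the nearest of its starts, with 168.8, from 68.6 and 99.6. Both peaks lay inside the gene, and these starts are internal ones. The Gata3 peak is chr2:9879707-9879888 in a span of 9857078-9887953 on the minus strand. The Runx3 peak is chr4:135150526-135150745 in a span of 135120645-135177990 on the plus strand. Il3, a haematopoietic growth factor gene farther along chromosome 11, had a summit at 2526 bp with 284.1, from 136.2 and 148.2, which was stronger than any peak of the 2 loci. At the other end, the nearest summit to Irf4, a transcription factor of activated lymphocytes, was 81545 bp away.

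**Figure D3:**
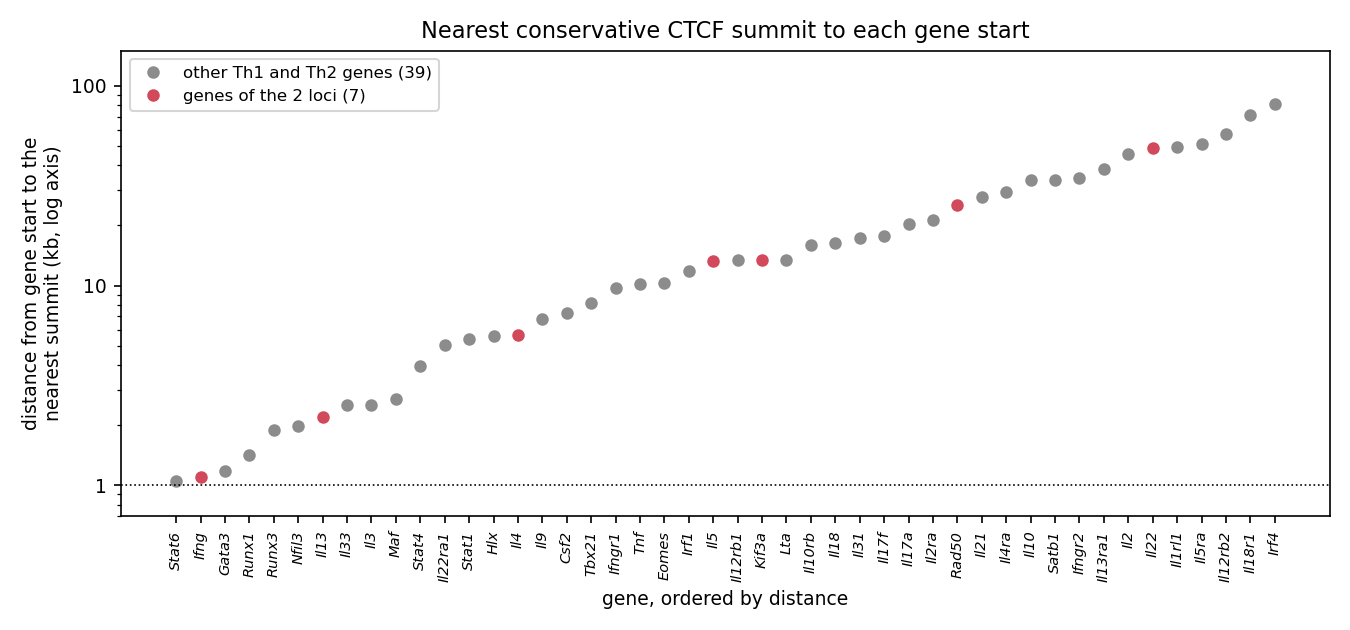
Distance in kb (log axis) from each gene start to the nearest conservative CTCF summit, ordered by distance. The 7 genes of the loci are red, and the 39 other genes linked to T helper cells and their cytokines are grey. For a gene with several starts, the smallest distance is drawn. The dotted line marks 1 kb, and no gene lies below it. The closest of the 7 is Ifng at 1096 bp and the farthest is Il22 at 48862 bp.

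The replicates differed at these loci by a median close to that of all peaks. Of the 31 peaks matched in both replicates, 9 were more than 1.5-fold apart after scaling, beside 17.4% of the 41382 matched peaks of the genome. The median gap was 1.21-fold at the loci and 1.21-fold over the genome. Of the 9, 4 were higher in replicate 1 and 5 in replicate 2, so the gaps went in both directions. At the Th2 locus 7 of 24 matched peaks were among these 9 and at the Ifng locus 2 of 7. Over the Th2 peaks with a summit in the replicate concerned, the median relative signal was 0.877 in replicate 1 and 1.19 in replicate 2. These medians rest on partly different peaks, since a peak at 0.697 counts only in replicate 1 and a peak at 1.65 only in replicate 2. They are therefore no measure of a gap over the same peaks. Over the Ifng peaks, all matched in both, the medians were 0.820 and 0.660. The sides differed along the Th2 locus: the peaks between Il4 and Il13 and the peak inside Il13 were higher in replicate 2, and the one between Kif3a and Il4 was higher in replicate 1. With 2 libraries of a single group, whether such gaps are larger than the spread among more libraries was not tested.

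**Figure D4:**
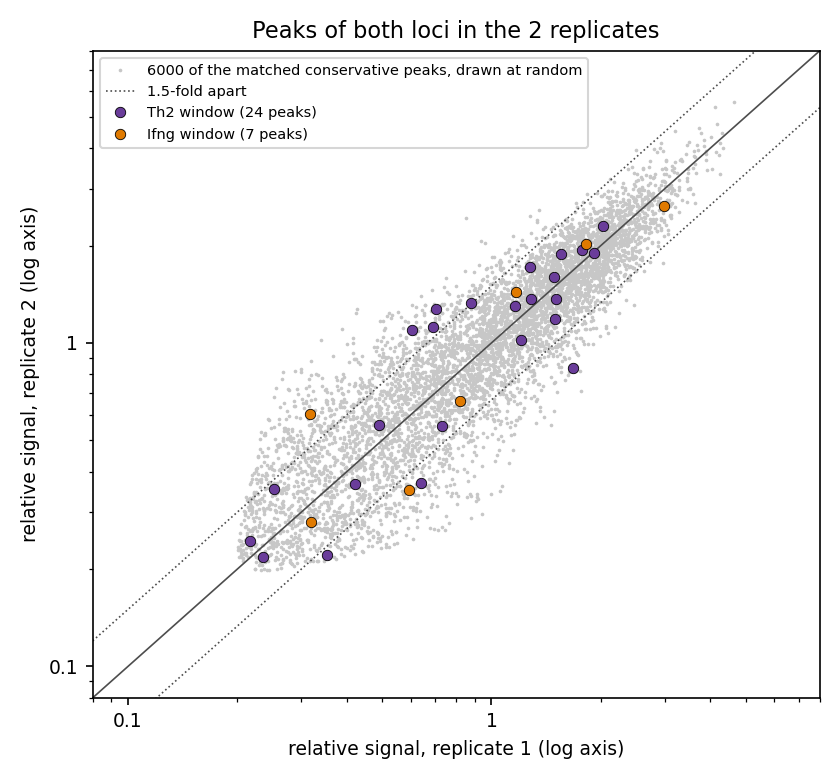
Relative signal in replicate 1 against replicate 2 (log axes, 1 = median conservative peak) for the 24 Th2 and 7 Ifng peaks matched in both, over grey points for a random draw of 6000 matched conservative peaks. The solid line marks equal values and the dotted lines a 1.5-fold gap. Of the 31 coloured points, 9 lie outside the dotted lines, 4 toward replicate 1 and 5 toward replicate 2.

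Below the conservative threshold, both windows held many weak entries. The pooled list had 95 entries outside the conservative set in the Th2 window and 45 in the Ifng window, with median signals of 9.38 and 9.37, close to the 9.57 of the whole list, which by construction includes background. The strongest near Ifng, 29457 bp from its start, had a pooled signal of 23.2 and 15.9 in replicate 2, with no summit within 100 bp in replicate 1. The strongest of the Ifng window, near Mdm1, had 29.2, from 21.3 in replicate 1 and 6.75 in replicate 2. In the Th2 window the strongest was 28.5, from 21.3 and 4.90, near Shroom1. Each of these was carried mainly by 1 library.

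The letters under the peaks were scored with the weight matrix, on mm9, where the windows held 33 peaks, 25 at the Th2 locus and 8 at the Ifng locus. A site was called where the best score within 50 bp of the peak's midpoint, on either strand, reached 12.8 bits, a score that 1% of 9193 flanking windows of the same length also reached. Such a site was found in 15 of the 33 peaks, or 45.5%, beside 53.7% of the 4846 peaks of chromosomes 10 and 11. Over the whole peak, with a threshold of 19.4 bits set in the same way, 12 peaks, or 36.4%, held a site, beside 35.4%. The loci thus held sites at about the rate of their chromosomes. A match describes the letters alone, and a peak without a match may still be bound through letters outside the window searched.

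Among the sequences printed above, the Ifng upstream site was the best match, at 23.5 bits and with 17 of its 19 bases equal to the most frequent base. Its peak had a fold enrichment of 19.69, from 20.40 in replicate 1 and 23.42 in replicate 2. The site between Il13 and Rad50 scored 21.1 bits with 15 such bases, under a peak of 15.61. The Il13 coding exon site scored 13.2 bits with 10 such bases, just above the threshold, yet its peak was stronger at 17.16, from 15.84 and 21.71. The Ifng intron site scored 15.3 bits under the weakest peak of its window, at 5.35. A higher score thus did not always go with a stronger peak.

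The strongest peak of each window did not have the best-scoring letters of its window. The outer downstream peak of Ifng, at 26.00 with 33.49 in replicate 1 and 28.69 in replicate 2, had a site of 17.0 bits. The strongest Kif3a peak, chr11:53403368-53404369 at 20.68, had no site within 50 bp of its midpoint. Its best place, 78 bp from the midpoint, scored 18.3 bits, which reached the threshold of 16.3 for windows of 100 bp to each side and not that of 19.4 for the whole peak. The other Kif3a intron peak, at 15.75, had a site of 18.5 bits. The inner downstream peak of Ifng, at 13.22, had a site of 14 bits. Downstream of Il5, site B scored 15.6 bits near the midpoint of a peak of 18.85, while sites A and C, at 21.8 and 22.7 bits, lay 392 and 308 bp from the midpoints of theirs. Both lay on the side of the midpoint away from Il5. For A the midpoint was 13454 bp from the Il5 start, and the nearest conservative mm10 summit was closer to Il5, at 13262 bp. For C the midpoint, at 16699 bp, fell between conservative summits at 16426 and 17002 bp, and the site lay toward the summit at 17002 bp. A distance from the midpoint of a wide mm9 peak is thus not a distance from a summit.

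**Figure D5:**
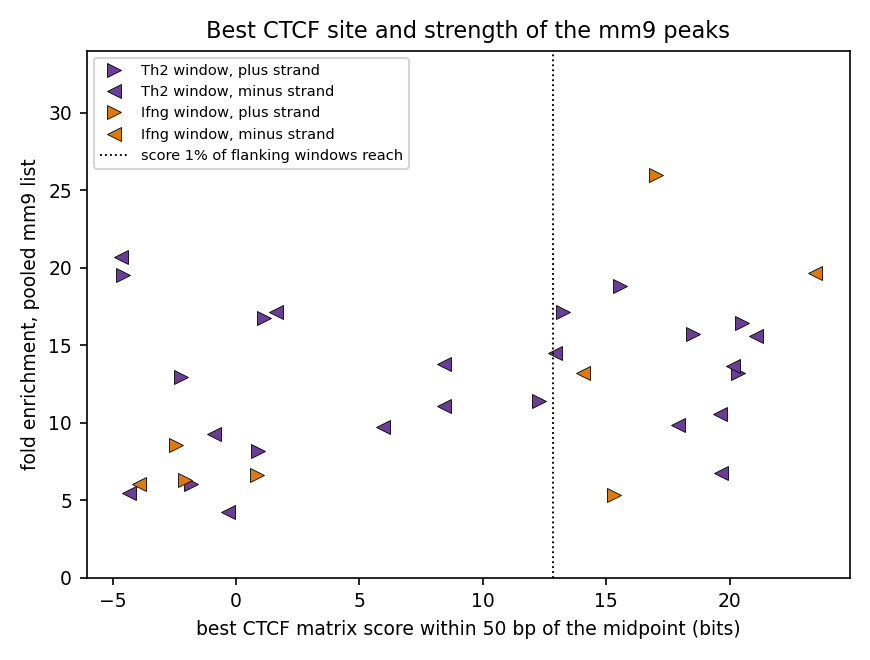
Best CTCF matrix score within 50 bp of the midpoint (bits) against fold enrichment in the pooled mm9 list for the 25 Th2 (purple) and 8 Ifng (orange) peaks, with triangles pointing right for a best match on the plus strand and left for the minus strand. The dotted line is the threshold of 12.8 bits. The Ifng upstream peak is farthest right at 23.5 bits and the outer downstream peak is highest at 26.00, and strong peaks occur on both sides of the line.

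The direction of the sites varied along the Th2 locus. Of its 10 whole-peak sites, 4 were on the plus and 6 on the minus strand, and among the 9 neighbouring combinations 2 were convergent, 2 divergent and 5 in the same direction. Sites called near the midpoint alone are not in that count. Of the printed sites, the Kif3a intron site pointed toward Il4, and the site between Il4 and Il13 pointed back toward Kif3a. The latter belongs to the weaker mm9 peak between these genes, at a fold enrichment of 9.85. The stronger peak there, at 17.16, had no called site. Its best score was 1.60 bits within 50 bp of the midpoint and 10.6 bits over the whole peak. The Il13 exon site pointed toward Rad50 and the site between Il13 and Rad50 pointed back toward Il13. Downstream of Il5, site A pointed toward Il5 and sites B and C away from it. At the Ifng locus, the upstream site pointed away from Ifng, the intron site along the gene, the inner downstream site back toward Ifng and the outer one away from it. Contacts were not measured, so these directions are a description of the letters only.

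Some sites resembled each other beyond the 19 bases. The runs between Il4 and Il13 and between Il13 and Rad50 were the same at 42 of 59 bases, or 71.2%, and the latter was the same as the Mdm1 intron run on chromosome 10 at 42 of 59. In the 20 bases after the site, the run between Il4 and Il13 and the Mdm1 run shared 17. The Mdm1 run lay off centre, 426 bp from the midpoint of a peak of 1714 bp, on the side away from Ifng. Within 50 bp of that midpoint the best score was -2.45 bits. The midpoint was 285.38 kb upstream of the Ifng start, and the conservative mm10 summit in Mdm1 was nearer, at 284.944 kb. Outside the conservative set, the pooled mm10 list also had an Mdm1 entry of 21.6, at chr10:118155095-118155410. The run is therefore not placed under the conservative Mdm1 peak. In the mouse, B2 short interspersed elements are known to carry many CTCF sites. No repeat annotation was used here, and whether these runs belong to such a family was not tested.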

How the data were processed

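CTCF ChIP-seq peak lists of 2 replicates were used as the authors deposited them. Per the deposited file descriptions, the mm10 lists hold peaks and background as input for IDR, made from filtered alignments with a control, and the conservative and optimal sets derive from them. Their signal per peak, as deposited by the authors, has no stated scale. The mm9 lists, per the file descriptions, are broad-peak calls whose fold enrichment is a ratio on the authors' scale. The deposited −log10 and false discovery columns were not used. Which peak caller and aligner and what IDR threshold were used is not given in the sources used here, and read depth is unknown.

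The analysis used Python 3.11.15, numpy 2.4.6, pandas 2.3.3, scipy 1.17.1 and matplotlib 3.10.9. Summits were matched to the nearest replicate summit within 100 bp, and signals were divided by each replicate's median over conservative peaks matched in both. Gene starts came from RefSeq promoters of build GRCm38 for 6 of the 7 genes, and for Rad50 from the gene span with its GENCODE strand. Sequences were read from the mm9 genome NCBIM37 with GENCODE vM1. No coordinate was converted between builds. The 19-base matrix was fitted by expectation maximisation over 15 iterations to the central sequence, 100 bp to each side, of 5000 strong mm9 peaks, none from chromosomes 10 and 11. It was tested on simulated sequences, and its thresholds came from windows 2000 bp beyond peak edges.

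Every conservative peak of the windows and every member gene is reported. Other genes are named where a summit lies in them or they are nearest to one. Members and lists were chosen with earlier results of these data known. Alternatives were another peak set, other flanks, match distances, scalings and score thresholds, and leaving out each replicate. For counts and densities, leaving out a replicate replaced the conservative set by 43344 entries of the other replicate's own list. Such a list has passed no threshold on reproducibility between the replicates.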

Additional observations from a re-analysis of the deposited data

How the results depend on the processing

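With a flank of 50 kb the Th2 window held 17 peaks and the Ifng window 3, and the optimal set gave 11 at Ifng. The Th2 density relative to chromosome 11, 2.15, was 2.40 with a flank of 50 kb, 1.54 with 300 kb, 2.37 with the optimal set, 3.48 relative to all autosomes and X, and 1.94 to 1.99 without either replicate, above 1 in each. The Ifng density relative to chromosome 10, 0.768, was 0.522 with a flank of 50 kb. It turned to 1.17 with the optimal set and 1.10 without replicate 2, and its range on leaving out a replicate was 0.755 to 1.10. The cause was not tested.

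The median relative signal of 1.10 ranged from 0.848 to 1.15 on leaving out a replicate, each over the peaks with a summit in the replicate kept. Genes with a summit near a start rose from 0 to 1 and 2 of the 7 at 2 kb and 5 kb, and from 0 to 5 and 9 of the 39. Peaks with a site near the midpoint fell from 15 to 7 at the score that 0.1% of flanking windows reached. Among single peaks, scaling by the mean moved 15 of 31 relative signals by more than 1 SD, matching within 50 bp moved 5 and kept 23, and matching over a wider distance moved 1, while taking the strongest entry moved none. With 2 replicates a value from 1 of them always lies within 1 SD of their mean, so leaving out a replicate cannot count here. Peaks near the median crossed it: the peak between Kif3a and Il4 was at 0.834 in replicate 2 alone, and the one upstream of Il4 at 1.12. The alternatives for the count of peaks over 1.5-fold apart gave 8 to 10. No paired analysis was possible because the 2 libraries form a single group. Unknown depth and 2 libraries limit the precision of each value.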
